A study of Mus musculus with 10 samples.

Results

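Collagen genes other than those of collagen VI were examined in bulk RNA-seq of mouse tumors that were later treated with a poly(I:C)-releasing hydrogel. A gene was included when its symbol had the form of a collagen chain (Col, a type number, a and a chain number), leaving out the 6 Col6a genes. This gave 38 of the 35958 genes and unnamed features of the table, of which 11 encode fibrillar chains, 8 encode chains of basement membranes and 19 encode other chains. All 10 tumors were WEHI-164, a BALB/c fibrosarcoma cell line of wild-type (WT) genotype, grown under the skin of female BALB/c mice. The study's methods give the age of its mice as 8 to 12 weeks. The tissue was untreated: it was the piece removed when 75% of the tumor was resected, before the hydrogel was placed on what remained. Of the mice, 5 were responders (RS, complete regression) and 5 were non-responders (NR, no delay in growth). Each tumor came from a separate mouse, all grown from the same cell line, and the comparison asks whether collagen expression before treatment differed with the later outcome.

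Total estimated counts ran from 16002949 to 31160790 in RS tumors (median 25627675) and from 19863863 to 28276142 in NR tumors (median 22757833). Levels are given as counts per 1000000 counts of the library (CPM) after TMM scaling, as mean ± SD over the 5 tumors of a group. Fold changes are on the log2 scale, RS over NR, ± standard error (SE), and p-values are from edgeR's quasi-likelihood test fitted across 15767 features. All 8 mesenchymal markers listed passed the filter on low counts, and Vim, the intermediate filament of mesenchymal cells, averaged 4761 CPM. All 8 endothelial markers listed passed it too, so passing the filter does not test the label of a fibrosarcoma. In bulk tumors, fewer collagen-producing cells and less collagen RNA per cell cannot be told apart. One library needs mention ahead of the results: the RS tumor numbered 5 lay within the range of the NR tumors for 25 of the 28 collagen genes tested, and the values without it are given after the class sums.

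Collagens are proteins in which chains wind around each other in a triple helix, which requires glycine as the first residue of each triplet (Gly-X-Y). Fibrillar collagens (types I, II, III, V and XI, with the related XXIV and XXVII) have long unbroken helices and build the fibers of connective tissue. Basement membrane collagens form sheets: type IV chains have interrupted helices that assemble into a network beneath epithelia and around vessels, and types XV and XVIII carry sugar chains and release fragments such as endostatin. The remaining types coat fibrils, anchor epithelia, span cell membranes or form short-chain networks. In fibrosarcomas, the tumor cells and the host fibroblasts and vessels can all be sources of collagen.

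The difference between the first 2 classes is visible in the coding sequence, and the following stretches are shown because they let an unbroken fibrillar helix (Col1a1) be set beside an interrupted type IV helix (Col4a1). Both were read 5′ to 3′ from spliced GENCODE vM21 transcripts on GRCm38, and capitals mark glycine codons (GGN) that start a Gly-X-Y triplet. The Col1a1 stretch holds codons 168 to 197, in exons 6 to 8 of 51, within chr11:94939451-94939939 on the plus strand, and opens the longest run of the gene. The Col4a1 stretch holds codons 212 to 237, in exons 11 to 13 of 52, within chr8:11241191-11242799 on the minus strand, and includes a break of 2 codons.
Col1a1: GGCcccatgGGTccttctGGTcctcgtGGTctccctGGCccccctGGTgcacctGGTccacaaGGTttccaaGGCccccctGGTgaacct
Col4a1: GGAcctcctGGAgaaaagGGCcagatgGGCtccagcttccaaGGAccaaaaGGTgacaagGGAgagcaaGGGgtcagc
The longest unbroken run of Gly-X-Y triplets was 338 in Col1a1 and 40 in Col4a1. In the 9 fibrillar genes other than Col24a1 and Col27a1 it was 337 to 344 triplets, and Col24a1 and Col27a1 had 216 and 217. The 6 type IV chains had longest runs of 39 to 66 triplets, divided over 16 to 19 runs of at least 10. Among the other collagens the longest run was between 23 and 113 triplets.

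Collagen genes mostly had lower mean levels in RS tumors, and none passed the test after adjustment. Of the 38 genes, 28 passed the filter on low counts: 9 fibrillar, 7 of basement membranes and 12 others. Of these, 22 had a log2 fold change below 0 and 6 above 0, where 51.4% of all features were below 0. The number below 0 was 21 to 24 under the alternatives. With Benjamini-Hochberg adjustment over all features, edgeR called 0 of the 28 at an adjusted p under 0.05, with adjusted p from 0.580 to 0.999, and it called 0.00% of all features. DESeq2 called 4 features and limma 0, with 0 collagen genes among them, although DESeq2 gave an adjusted p for 12 of the 28 alone and left the 16 others, such as Col15a1, unadjusted. At an unadjusted p under 0.05, 12 of the 28 collagen genes were lower in RS and 1 was higher, beside 4.0% lower and 4.21% higher of all features, 8.21% in either direction. The median log2 fold change of the 28 was -0.18, beside -0.0036 over all features.

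The remaining 10 genes did not pass the filter and had no test. Their highest count in any tumor was 13. These were Col2a1 and Col11a1, fibrillar chains of cartilage, the type IV chain Col4a6, and Col8a2, Col9a1, Col9a2, Col10a1, Col19a1, Col22a1 and Col25a1. Col9a1 and Col9a2, which coat cartilage fibrils, had no count in any of the 10 tumors.

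Per transcript length, collagen III and collagen I dominated. Converted to transcripts per 1000000 transcripts (TPM), the mean level over all tumors was 1068 for Col3a1, 456 for Col1a1 and 270.5 for Col1a2. These 3 fibrillar chains together held 58.9% of the TPM of the 28 genes. Col18a1 followed with 241 TPM, ahead of Col5a2 with 187 and Col5a1 with 184. Col4a1 stood at 101 TPM and its partner Col4a2 at 70.9 TPM.

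All 9 fibrillar genes past the filter had a lower mean in RS tumors, beside 51.4% of all features with a log2 fold change below 0. At an unadjusted p under 0.05, 6 of the 9 were lower, beside 4.0% of all features. The median log2 fold change of the 9 was -0.20. Values of single genes follow in CPM, in the order of tumors 1, 2, 3, 6 and 7 for NR and 5, 9, 10, 11 and 12 for RS. Col1a1 encodes the major chain of collagen I and lies at chr11:94936224-94953042 (plus strand). It stood at 1118, 1115, 1036, 1328 and 976 CPM in NR tumors and at 1022, 797, 941, 974 and 870.1 CPM in RS tumors. The RS tumors other than tumor 5 were below every NR tumor. The group means were 921 ± 88.5 and 1115 ± 133 CPM, a log2 fold change of -0.28 ± 0.09 (edgeR, unadjusted p = 0.00655). Col3a1, the chain of collagen III (chr1:45311538-45349706, plus strand), had 2127, 2573, 2287, 2640.3 and 2341 CPM in NR tumors and 2387, 2099.9, 2009.6, 1902 and 2002 CPM in RS tumors. Again the groups overlapped through RS tumor 5 alone. Its log2 fold change was -0.20 ± 0.07 (edgeR, unadjusted p = 0.0160).

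Collagen V is a minor partner of collagen I fibrils and limits their diameter. Its main chain gene Col5a1 (chr2:27886425-28039514, plus strand) had the smallest p of all collagen genes. NR tumors had 645, 662, 610.3, 674 and 583 CPM of Col5a1, and RS tumors had 608, 489, 547, 482 and 526 CPM. Only tumor 5 among the RS tumors was above the lowest NR tumor. The log2 fold change was -0.26 ± 0.07 (edgeR, unadjusted p = 0.00188, Benjamini-Hochberg adjusted p = 0.580). For Col5a2 (chr1:45374321-45503282, minus strand) the NR tumors had 449, 547, 528, 504 and 461 CPM and the RS tumors 522, 455, 389.7, 382 and 417 CPM, with RS tumors 5 and 9 inside the NR range. Its log2 fold change was -0.20 ± 0.09 (edgeR, unadjusted p = 0.0363). Col5a3 (chr9:20770050-20815067, minus strand) differed from the other chains in which tumors were high: the NR tumors had 277, 218, 191, 246 and 212 CPM and the RS tumors 189, 178, 206, 219 and 189 CPM. Here RS tumors 10 and 11 were the ones inside the NR range and tumor 5 was below it. The log2 fold change of Col5a3 was -0.22 ± 0.09 (edgeR, unadjusted p = 0.0300), and it was -0.14 without NR tumor 1.

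Col11a2, a chain of collagen XI (chr17:34039437-34066685, plus strand), was far scarcer per length, at 4.22 TPM, with 133 to 340 counts per tumor. It had 13.0, 8.54, 8.75, 11.2 and 13.3 CPM in NR tumors and 11.4, 8.31, 7.35, 6.05 and 7.90 CPM in RS tumors. The log2 fold change was -0.42 ± 0.17 (edgeR, unadjusted p = 0.0302), and RS tumor 5 again lay inside the NR range while the other RS tumors lay below it. Col1a2, named after its values were seen because it is the partner chain of Col1a1, had 610.0, 445, 453, 802 and 574 CPM in NR tumors and 469, 489, 497, 596 and 519.9 CPM in RS tumors. All 5 RS tumors were inside the NR range, and the log2 fold change of -0.17 had an approximate 95% interval from -0.44 to 0.11. Col24a1 and Col27a1 made up the class with log2 fold changes of -0.15 ± 0.17 and -0.16 ± 0.13.

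**Figure D1:**
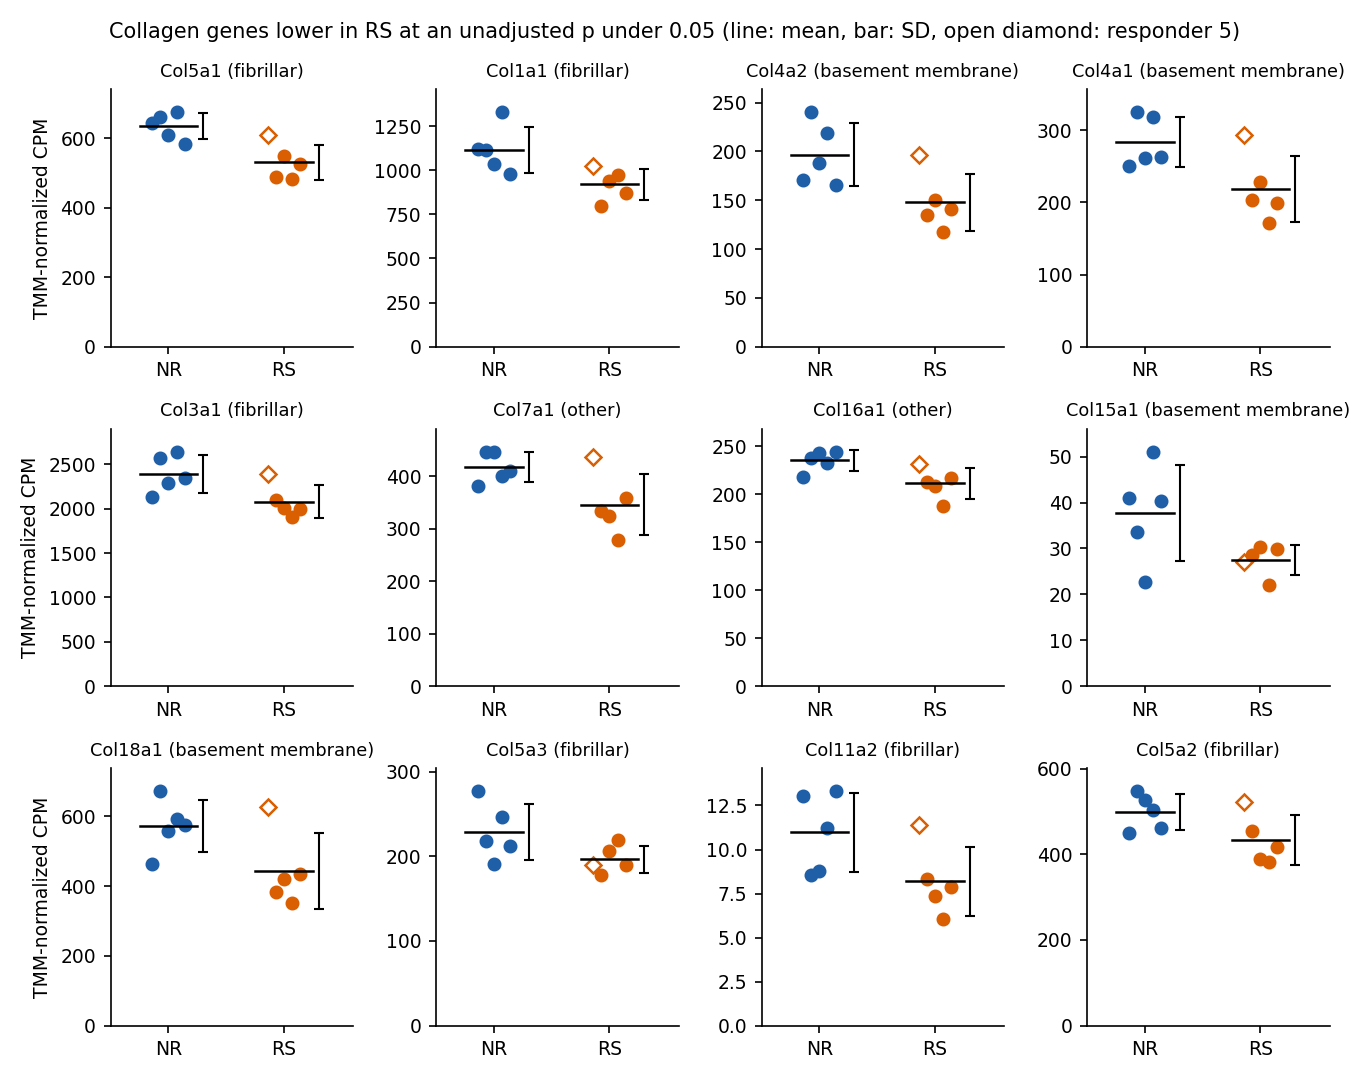
TMM-scaled CPM (vertical axis, from 0) of the 12 collagen genes that were lower in RS at an unadjusted p under 0.05, one point per tumor, NR in blue and RS in orange, with the group mean as a line and the SD as a bar. The open diamond is RS tumor 5, which lies within the NR range in 11 of the 12 panels.

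Basement membrane collagens had the largest median difference of the 3 classes. Of 7 genes past the filter, 5 had a lower and 2 a higher mean in RS, beside 51.4% of all features with a log2 fold change below 0. At an unadjusted p under 0.05, 4 of the 7 were lower, beside 4.0% of all features. The median log2 fold change of the class was -0.37. The genes Col4a1 (chr8:11198423-11312826, minus strand) and Col4a2 (chr8:11312805-11449287, plus strand) encode the chains of the common collagen IV trimer and lie head to head. Their annotated starts overlap by 22 bases, shown here because both genes begin in it, read on the plus strand from the RefSeq promoter table (GRCm38.p6) at chr8:11312805-11312826.
Col4a1 and Col4a2: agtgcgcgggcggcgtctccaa
Reads of these bases alone cannot be told apart without strand, and whether strand was used is not given in the sources used here. Col4a1 had 251, 325, 261, 319 and 263 CPM in NR tumors and 293, 203, 228, 171 and 199 CPM in RS tumors. The log2 fold change was -0.37 ± 0.13 (edgeR, unadjusted p = 0.0108). Col4a2 had 171, 240.0, 188, 219 and 165 CPM in NR tumors and 196, 134, 150.4, 117 and 141 CPM in RS tumors, a log2 fold change of -0.41 ± 0.13 (edgeR, unadjusted p = 0.00837). In both genes RS tumors 9 to 12 were below every NR tumor, RS tumor 11 was the lowest and RS tumor 5 was exceeded by NR tumors 2 and 6 alone.

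Col18a1 (chr10:77052178-77166548, minus strand), the precursor of endostatin, was the most abundant of the class. NR tumors had 463, 672, 558, 591 and 574 CPM and RS tumors had 628, 383, 419, 352 and 435 CPM. RS tumor 5 was exceeded by NR tumor 2 alone, and the other RS tumors were below every NR tumor. The log2 fold change was -0.37 ± 0.14 (edgeR, unadjusted p = 0.0208). Col15a1 (chr4:47208161-47313167, plus strand), which encodes a related chain at the border of basement membrane and stroma, had 41.0, 33.6, 22.7, 51.0 and 40.2 CPM in NR tumors and 26.9, 28.5, 30.3, 22.1 and 29.8 CPM in RS tumors. For this gene the overlap came from NR tumor 3, not from RS tumor 5, and the log2 fold change was -0.46 ± 0.17 (edgeR, unadjusted p = 0.0172). The chains of more specialized membranes were scarce. Col4a5 averaged 9.52 ± 0.875 CPM in RS and 9.39 ± 1.74 CPM in NR, with a log2 fold change of 0.02 ± 0.13. Col4a3 and Col4a4, which lie head to head on chromosome 1, had means under 1 CPM and log2 fold changes of 0.13 ± 0.40 and -0.16 ± 0.30.

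Among the other collagens, 8 of 12 had a lower and 4 a higher mean in RS, beside 51.4% of all features with a log2 fold change below 0. At an unadjusted p under 0.05, 2 were lower and 1 higher, beside 4.0% lower and 4.21% higher of all features. The median log2 fold change of the class was -0.12. That median was -0.071 without NR tumor 1, -0.040 without RS tumor 5 and -0.025 without NR tumor 6. Col7a1 (chr9:108953586-108984875, plus strand), the chain of anchoring fibrils, had 381, 446, 446, 399.9 and 409.8 CPM in NR tumors and 436, 333, 324, 279 and 358 CPM in RS tumors. RS tumors 9 to 12 were below every NR tumor, and the log2 fold change was -0.27 ± 0.10 (edgeR, unadjusted p = 0.0163). The fibril-associated chain Col16a1 (chr4:130047840-130099283, plus strand) had 218, 238, 243, 233 and 244 CPM in NR tumors and 232, 213, 209, 188 and 217 CPM in RS tumors. Its difference was among the smallest, -0.15 ± 0.06 in log2 fold change, and so was its spread (edgeR, unadjusted p = 0.0170). Col12a1 and Col8a1, outside the rule for named genes and mentioned for their abundance, had log2 fold changes of -0.08 ± 0.10 and -0.19 ± 0.12. Col12a1 encodes a fibril-associated chain and Col8a1 a chain of a short-chain network found around vessels.

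The 6 genes with higher means in RS were scarce, the highest of them at 4.67 TPM (Col14a1, a fibril-associated chain). Col26a1 (chr5:136741759-136883209, minus strand) rested on 13 to 41 counts per tumor and had 0.572, 0.893, 1.16, 0.812 and 1.06 CPM in NR tumors and 1.09, 1.94, 1.48, 1.33 and 1.11 CPM in RS tumors. The log2 fold change was 0.61 ± 0.23 (edgeR, unadjusted p = 0.0210), with RS tumors 5 and 12 inside the NR range. Col17a1 (chr19:47646344-47692094, minus strand), a transmembrane collagen of hemidesmosomes, had 0.572, 0.536, 0.604, 0.406 and 0.548 CPM in NR tumors and 0.699, 0.688, 0.888, 0.715 and 0.652 CPM in RS tumors, from 9 to 22 counts. Every RS tumor exceeded every NR tumor, which held for 1 of the 28 collagen genes and for 0.336% of all features. Its log2 fold change was 0.44 ± 0.21 (edgeR, unadjusted p = 0.0628, Benjamini-Hochberg adjusted p = 0.620). On the log2(CPM + 1) scale used with limma-trend, which shrinks differences of scarce genes, it was 0.17 (unadjusted p = 0.0464), and that of Col26a1 was 0.33. Col23a1 (chr11:51289920-51583918, plus strand), another transmembrane chain, had 1.76, 1.21, 1.01, 0.767 and 1.02 CPM in NR tumors and 1.28, 0.688, 2.17, 1.33 and 1.30 CPM in RS tumors. RS tumor 10 was above every NR tumor, RS tumor 9 was below every NR tumor, and the log2 fold change was 0.24 ± 0.28. That value was 0.028 without RS tumor 10, 0.44 without NR tumor 1 and 0.39 without RS tumor 9. With each tumor left out in turn, 7 of the 12 lower genes stayed under an unadjusted p of 0.05 in all 10 fits: Col1a1, Col3a1, Col5a1, Col4a1, Col4a2, Col7a1 and Col16a1 (edgeR). Col15a1 did so in 9 of the fits, Col18a1 in 7, Col5a3 in 5 and Col11a2 and Col5a2 in 4, and the higher gene Col26a1 in 8. These genes were chosen for an unadjusted p under 0.05 with all tumors, and each fit shared most of those tumors. How often other features with such a p stayed under it was not counted, so these numbers have no background beside them. The 13 collagen genes past the filter that the rule did not name, those given above among them, had log2 fold changes from -0.25 to 0.13 and unadjusted p from 0.140 to 0.985 (edgeR).

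**Figure D2:**
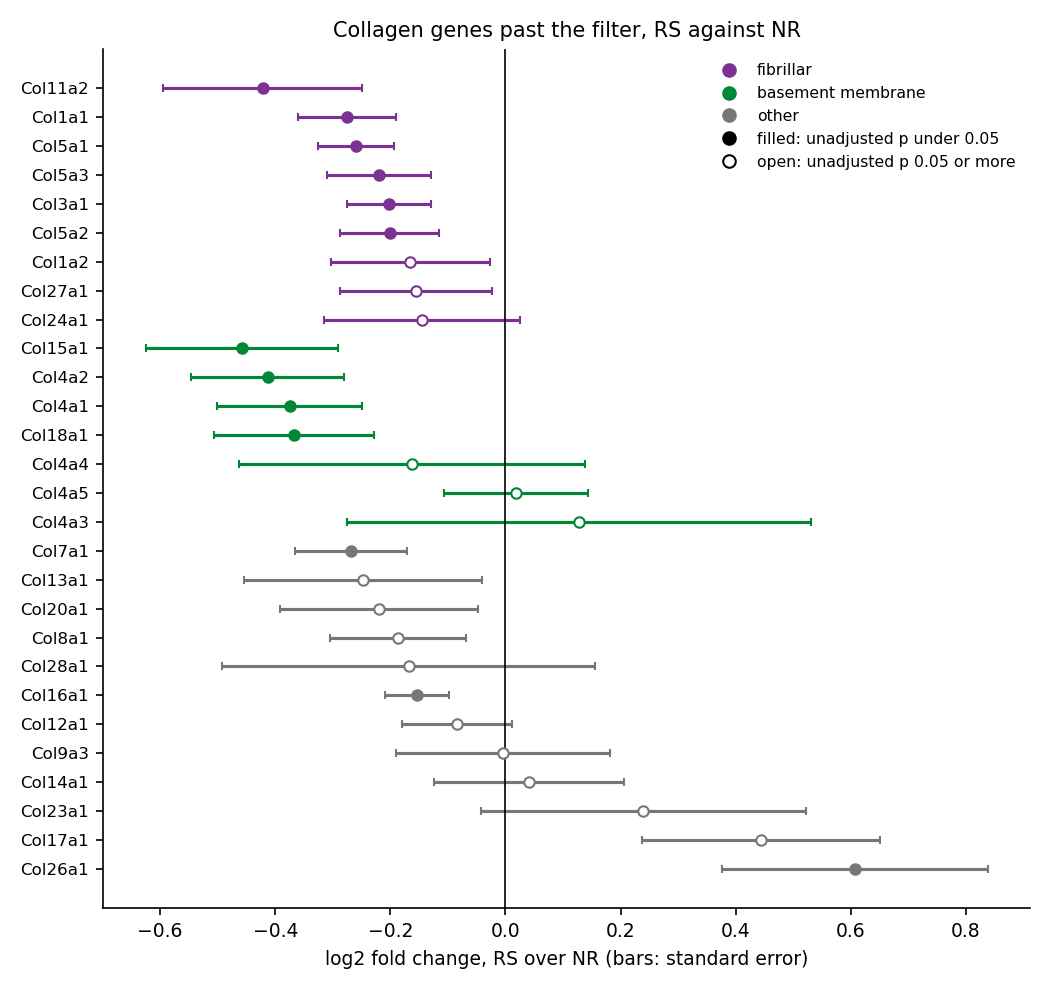
Log2 fold change of RS over NR (horizontal axis) with its standard error for each of the 28 collagen genes past the filter, colored by class; filled points have an unadjusted p under 0.05. All 9 fibrillar genes lie left of 0, with a median of -0.20, and the 3 genes farthest to the right, Col23a1, Col17a1 and Col26a1, are in the other class.

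All 13 collagen genes with a mean of at least 100 CPM had a lower mean in RS, and 10 of them had an unadjusted p under 0.05. Among all 2437 features of at least 100 CPM, 6.07% were lower in RS at an unadjusted p under 0.05 and the median log2 fold change was -0.02. Of the 12 collagen genes under 10 CPM, 7 had a lower and 5 a higher mean in RS. Collagen transcripts are long and rich in GC: 21 of the 28 were in the top 20% of measured transcripts by length, whose median log2 fold change was -0.02, and 16 were in the top 20% by GC content, whose median was -0.03.

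Summed over the class, the fibrillar genes reached 4720.2 ± 299.8 CPM in RS and 5499 ± 451 CPM in NR tumors, 14.2% less in RS. Single NR tumors lay between 5156 and 6242 CPM. RS tumors 9 to 12 lay between 4555 and 4633 CPM, and RS tumor 5 was at 5254 CPM. The sum of the basement membrane genes was 848 ± 183 CPM in RS and 1100.3 ± 135 CPM in NR, 22.9% less. For the other collagens the sums were 861 ± 77.0 and 980.1 ± 28.3 CPM, 12.2% less in RS. All 38 genes together took 0.643% of the library in RS and 0.758% in NR. The sums follow their most abundant genes, since Col3a1, Col1a1 and Col5a1 held 75.1% of the fibrillar sum.

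**Figure D3:**
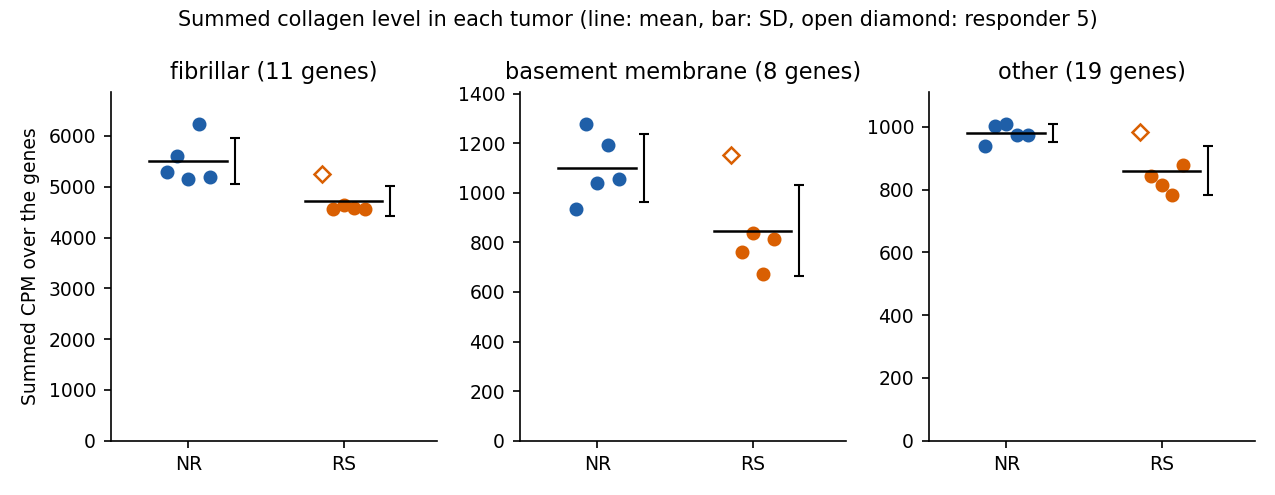
Summed CPM (vertical axis, from 0) of the fibrillar, basement membrane and other collagen genes in each tumor, NR in blue and RS in orange, with group mean (line) and SD (bar). RS tumors 9 to 12 form a tight group at 4555 to 4633 CPM for the fibrillar genes, and the open diamond, RS tumor 5, lies apart at 5254 CPM.

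Over all 28 collagen genes tested, RS tumor 5 was within the NR range in 25, below it in 2 and above it in 1. The other RS tumors were within the NR range in 9 to 13 genes and below every NR tumor in 13 to 15. With all tumors, 0 collagen genes had every RS tumor below every NR tumor, where 0.590% of all features did. Without RS tumor 5, 9 of the 28 did (Col1a1, Col3a1, Col5a1, Col11a2, Col4a1, Col4a2, Col18a1, Col7a1 and Col16a1), beside 2.45% of all features. This tumor was singled out by these same collagen values, so its removal is a description and supports no difference between the groups. Leaving out any other single tumor gave 0 to 2 such genes. Without RS tumor 5 the log2 fold change was -0.31 for Col1a1, -0.25 for Col3a1, -0.31 for Col5a1, -0.27 for Col5a2, -0.20 for Col5a3 and -0.57 for Col11a2. It was then -0.50 for Col4a1, -0.53 for Col4a2, -0.52 for Col18a1, -0.45 for Col15a1, -0.36 for Col7a1 and -0.19 for Col16a1. The summed difference between RS and NR was -902 CPM for the fibrillar, -327 CPM for the basement membrane and -148 CPM for the other collagens, against -779, -252 and -119 CPM with all tumors. At an unadjusted p under 0.05, 12 collagen genes were lower, beside 6.79% of all features (edgeR). These were not the same 12 as with all tumors, since Col5a3 then had an unadjusted p of 0.0593 (edgeR). Of the collagen genes 0 passed adjustment, beside 9 of the 15695 features then tested (edgeR, Benjamini-Hochberg, smallest adjusted p of a collagen gene = 0.0691 for Col18a1). The depth of RS tumor 5, 25627675 estimated counts, was the median of its group.

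Partner chains of a trimer were compared as ratios per transcript length. The ratio of Col4a1 to Col4a2 was nearly constant, 1.44 ± 0.04 in RS and 1.42 ± 0.09 in NR (difference of log2 ratios 0.03, exact two-sided permutation test p = 0.548, n = 5 per group). The ratio of Col1a1 to Col1a2 varied more, from 1.47 to 2.26, with means of 1.63 ± 0.21 in RS and 1.80 ± 0.34 in NR (difference of log2 ratios -0.14, exact permutation p = 0.317). For Col5a1 to Col5a2 the means were 0.972 ± 0.098 and 1.01 ± 0.086 (difference of log2 ratios -0.06, exact permutation p = 0.532). Adjusted over the 3 ratios by Benjamini-Hochberg, the exact p was 0.548 for each, and this design cannot give a p under 0.00794. With 1 tumor left out, the difference of log2 ratios ranged from 0.0049 (without NR tumor 2) to 0.064 (without NR tumor 7) for Col4a1 to Col4a2. For Col1a1 to Col1a2 it ranged from -0.21 (without RS tumor 5) to -0.050 (without NR tumor 2), and for Col5a1 to Col5a2 from -0.10 (without RS tumor 10) to -0.0075 (without RS tumor 9). The highest Col1a1 to Col1a2 ratios were in NR tumors 2 and 3 and in RS tumor 5, with 2.26, 2.06 and 1.97.

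**Figure D4:**
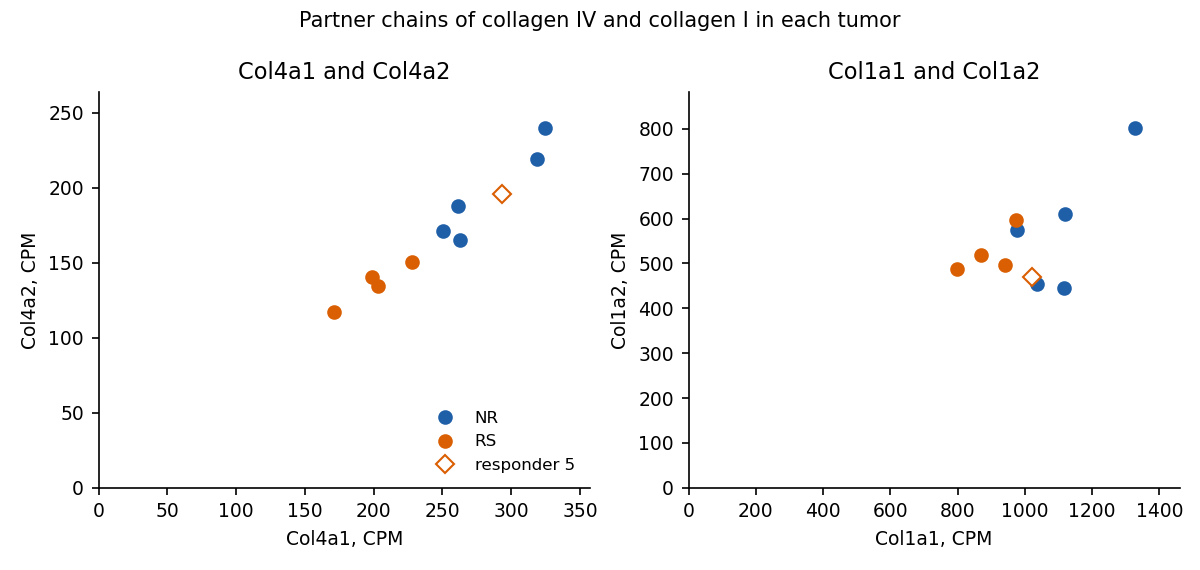
CPM of Col4a2 against Col4a1 and of Col1a2 against Col1a1, one point per tumor, NR in blue, RS in orange and RS tumor 5 as an open diamond, with axes from 0. The collagen IV chains lie close to a line through the origin (Pearson's r of 0.979 over the 10 tumors, taken on log2 CPM), and the collagen I chains scatter (r of 0.541, also on log2 CPM).

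Collagen genes did not all vary together across tumors. Over the 16 genes with a mean of at least 10 CPM, the 120 pairwise correlations of log2(CPM + 1) over the 10 tumors had a median of 0.460, and 96 were positive. These are descriptions over tumors that share their libraries and the group difference. A set around Col4a1 ran in parallel, with r of 0.979 to Col4a2, 0.947 to Col3a1, 0.945 to Col18a1 and 0.93 to Col5a1. Within this set Col7a1 and Col16a1 were correlated at 0.954 and Col8a1 and Col5a2 at 0.955. Col1a2, Col12a1 and Col5a3 formed a different pattern, with r of 0.87 between Col1a2 and Col12a1, 0.68 between Col1a2 and Col5a3 and 0.71 between Col12a1 and Col5a3. Col1a2 had an r of 0.05 to Col4a1, and the lowest correlation was -0.611, between Col8a1 and Col12a1. In deviations from the group means, which leave out the difference between RS and NR, the median over the 120 pairs was 0.307 and 81 were positive. The correlation of Col1a1 was then 0.49 to Col4a1 and 0.43 to Col3a1, against 0.73 and 0.70 in all tumors. It was 0.962 for Col4a1 and Col4a2, 0.963 for Col8a1 and Col5a2 and -0.826 for Col8a1 and Col12a1. Col1a1 stood between the sets, at 0.73 to Col4a1 and 0.54 to Col1a2. Outside the collagens, the genes most like Col1a1 among 9859 of at least 10 CPM were Apbb1ip (r of 0.977), Naf1 (0.972), Khsrp (0.961), Sf3b4 (0.958) and Pcbp1 (0.938).

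**Figure D5:**
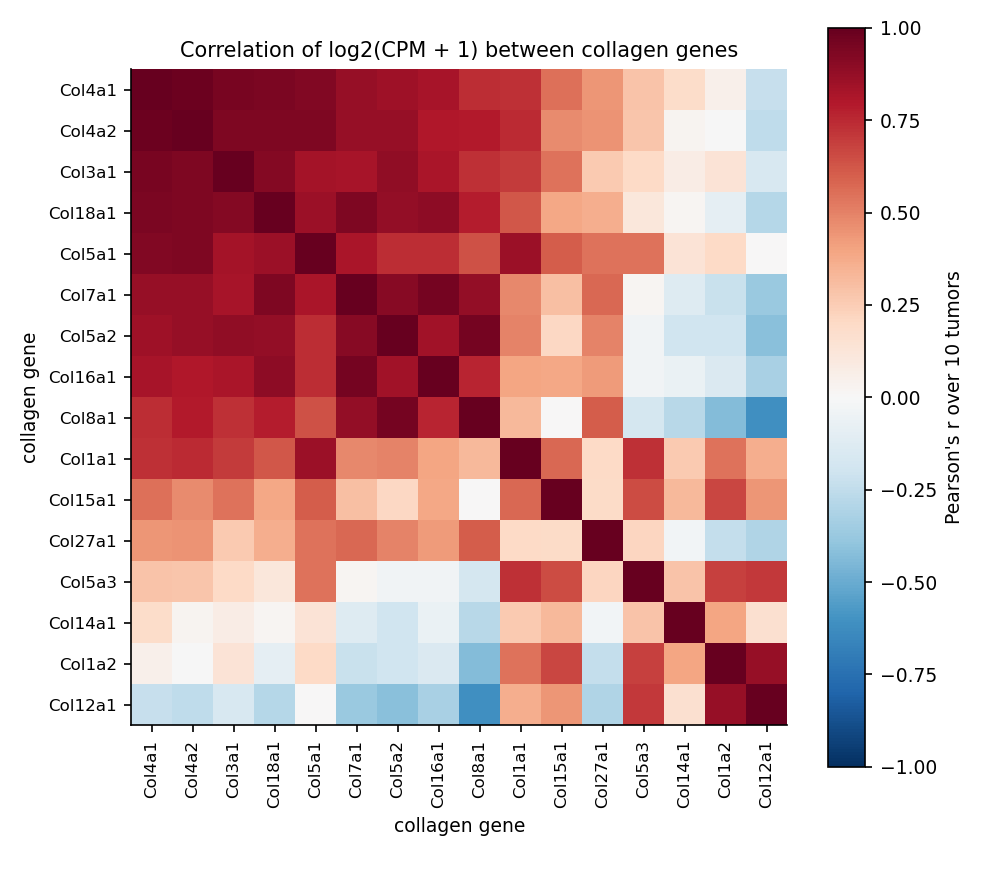
Pearson's r of log2(CPM + 1) over the 10 tumors for each pair of the 16 collagen genes with a mean of at least 10 CPM, both axes ordered by the correlation with Col4a1, red positive and blue negative. The upper left block runs from Col4a1 to Col8a1, and Col1a2 and Col12a1 in the last rows are pale or blue against it, down to -0.611 for Col8a1 and Col12a1.

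Genes of collagen biosynthesis and processing were spread around a log2 fold change of 0. Of 30 listed genes 29 passed the filter, 16 with a lower and 13 with a higher mean in RS, a median log2 fold change of -0.01 and 0 passing the adjusted test. At an unadjusted p under 0.05, 3 of the 29 were lower and 0 higher, beside 4.0% lower and 4.21% higher of all features. Fkbp10, a chaperone of procollagen, had 133 ± 6.18 CPM in RS and 152 ± 14.4 CPM in NR (log2 fold change -0.19 ± 0.06, edgeR, unadjusted p = 0.00791). P3h1, a prolyl 3-hydroxylase, had a log2 fold change of -0.12 ± 0.04 (edgeR, unadjusted p = 0.0118). The other one, Loxl2, a crosslinking enzyme named after its values were seen, had -0.16 ± 0.06 (edgeR, unadjusted p = 0.0167). The smallest p in the other direction belonged to the enhancer of procollagen cleavage Pcolce2 (log2 fold change 0.38 ± 0.21, edgeR, unadjusted p = 0.0917) and the prolyl 4-hydroxylase subunit P4ha3 (0.24 ± 0.16, edgeR, unadjusted p = 0.156). The collagen chaperone Serpinh1, also named after its values were seen, was at 1019 ± 78.4 CPM in RS and 1017 ± 45.1 CPM in NR. Summed over the list, RS tumors had 6165 ± 291 CPM and NR tumors 6209.7 ± 152 CPM.

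Of 10 collagen receptors, 9 passed the filter, 6 with a lower and 3 with a higher mean in RS, a median log2 fold change of -0.04 and 0 passing the adjusted test. Itga1, the integrin subunit that pairs with Itgb1 to bind collagens including type IV, was at 25.8 ± 2.08 CPM in RS and 21.0 ± 2.45 CPM in NR (log2 fold change 0.30 ± 0.08, edgeR, unadjusted p = 0.00337). Itga2, the other subunit with the smallest p in this direction, had 0.17 ± 0.15 (edgeR, unadjusted p = 0.286). Mrc2, the endocytic receptor that takes up collagen fragments, had a log2 fold change of -0.21 ± 0.10 (edgeR, unadjusted p = 0.0475), and the receptor tyrosine kinase Ddr1 had -0.10 ± 0.06 (edgeR, unadjusted p = 0.125).

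Markers of cells that make or lie next to collagen are given for the same tumors, and their part in the collagen values was not tested. Of the 8 fibroblast or mesenchymal markers, 3 had a lower and 5 a higher mean in RS. Their sum was 5229.6 ± 437 CPM in RS and 5018 ± 375 CPM in NR, led by Vim, which averaged 4761 CPM. Pdpn, a glycoprotein of stromal and lymphatic cells, was the single one of the 8 under an unadjusted p of 0.05, beside 4.21% of all features higher at that p. Its log2 fold change was 0.26 ± 0.10 (edgeR, unadjusted p = 0.0194). Of the 3 lower markers, Pdgfrb had the smallest p (log2 fold change -0.21 ± 0.10, edgeR, unadjusted p = 0.0510). Endothelial cells are a source of Col4a1, Col4a2 and Col18a1. Of 8 endothelial markers, 7 had a lower mean in RS, beside 51.4% of all features, and 3 of these had an unadjusted p under 0.05, beside 4.0% of all features: Cdh5 (log2 fold change -0.39 ± 0.14), Tie1 (-0.29 ± 0.10) and Kdr (-0.19 ± 0.08). The most abundant, Pecam1, had 72.6 ± 6.54 CPM in RS and 68.1 ± 5.38 CPM in NR, and the sum of the 8 was 171 ± 9.89 and 187 ± 16.0 CPM. Summed pericyte or smooth muscle markers stood at 123 ± 26.1 CPM in RS and 116 ± 16.8 CPM in NR, led by Des at 60.1 CPM. RS tumor 11 had the highest sum, 157 CPM, of which Des was 101 CPM. Of the 7 markers, 3 had a lower and 4 a higher mean in RS. Abcc9 alone was lower at an unadjusted p under 0.05 (edgeR, log2 fold change -0.21), beside 4.0% of all features.

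Of 8 leukocyte markers 7 passed the filter, all with a higher mean in RS, where 51.4% of all features had a log2 fold change below 0. Of the 7, Nkg7 of cytotoxic lymphocytes alone had an unadjusted p under 0.05, beside 4.21% of all features higher at that p (log2 fold change 1.06 ± 0.35, edgeR, unadjusted p = 0.0105). The leukocyte sum was 569 ± 58.3 CPM in RS and 519 ± 48.0 CPM in NR, led by Itgam, and RS tumor 5 had the lowest sum of the RS tumors, 495 CPM. Markers of adjoining tissue were also measured, since Col17a1 and Col7a1 are known from skin. The keratinocyte sum was 20.2 ± 1.78 CPM in RS and 19.0 ± 0.795 CPM in NR, led by Dsp, with 3 of 7 markers past the filter and Krt1 at 0 in all tumors. Trp63, the transcription factor of basal epithelium, was 1 of these 3 and was higher in RS at an unadjusted p under 0.05 at 3.23 ± 0.902 CPM against 1.86 ± 0.530 CPM (log2 fold change 0.79 ± 0.24, edgeR, unadjusted p = 0.00613). The other 2, Dsp and Krt10, had log2 fold changes of -0.03 and 0.01. Skeletal muscle markers summed to 106 ± 45.9 CPM in RS and 143 ± 39.9 CPM in NR, led by Acta1. All 5 past the filter had a lower mean in RS, beside 51.4% of all features, with a median log2 fold change of -0.29. Of these 5, Ckm and Myh4 were lower at an unadjusted p under 0.05, beside 4.0% of all features (edgeR). Adipocyte markers summed to 23.9 ± 6.42 CPM in RS and 26.3 ± 9.10 CPM in NR, led by Fabp4. All 5 also had a lower mean in RS, with a median log2 fold change of -0.40. Lep alone of the 5 was lower at an unadjusted p under 0.05, beside 4.0% of all features (edgeR). Of the 4 cartilage markers only Sox9 passed the filter, at 60.1 CPM.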

How the data were processed

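Polyadenylated RNA of 10 resected tumors was sequenced in 150-base read pairs. The authors estimated counts with Kallisto 0.43.0 on mm10 (GRCm38), summed them per gene with tximport, and deposited estimated counts without normalization. The annotation release is not given in the sources used here. Of 36009 rows, 9580 had no gene name and were kept as separate features, and 44 names on several rows were summed. Values were rounded, and features above 0.366 CPM in at least 3 tumors were kept. The study's methods give this minimum for its time-course data, not for these resected tumors.

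RS and NR were compared with edgeR 4.0.16 in R 4.3.3 (TMM, quasi-likelihood test, Benjamini-Hochberg adjustment, threshold 0.05). The SE was derived from the fold change and the F statistic of the test. The interval given for Col1a2 is a normal approximation from this SE and is narrower than the test implies. The spread between tumors gave a biological coefficient of variation of 10.4%. No batch is labelled. Ratios were tested by exact permutation with scipy 1.17.1. DESeq2 1.42.0, limma 3.58.1, other normalizations and filters, and leaving out each tumor were alternatives. TPM used the longest coding transcript of each gene in GENCODE vM21, and the RefSeq promoter table held 29 of the 38 genes.

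Members and lists were chosen with earlier results of these data known. Values per tumor are given for the 2 most abundant genes of each class, those with an unadjusted p under 0.05, and the 3 smallest p in each direction. Of each pathway list, the 2 smallest p in each direction are named. On data simulated for this comparison over 15575 features, 99% of 2-fold and 100% of 4-fold changes were called, and so were 13 unchanged features. These changes were placed in the more abundant features alone, and changes under 2-fold were not simulated. The shares therefore do not tell how often differences of the size seen in collagen genes, or in scarce genes, would be called. Estimated counts of similar transcripts carry an assignment error that was not measured.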

Additional observations from a re-analysis of the deposited data

Results flagged for a closer look

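Of 42 groups of 5 tumors examined for a tumor far from the others, 2 stood out, where 2.1 would be expected by chance. The summed fibrillar collagens of RS tumor 5, at 5254 CPM, were far above the other RS tumors, which lay between 4555 and 4633 CPM. Col17a1 in RS tumor 10 was at 0.888 CPM, above the 0.652 to 0.715 CPM of the other RS tumors, on few counts. The cause of neither was tested.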

How the results depend on the processing

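No paired analysis was possible because the tumor numbers are unique across RS and NR. The other normalizations, filters and tests left 12 collagen genes lower in RS at an unadjusted p under 0.05 and 0 past the adjusted test by edgeR and limma. DESeq2 called 0 of the 12 collagen genes it gave an adjusted p (smallest 0.0534, Col5a1) and gave none for the other 16. The count of collagen genes higher at an unadjusted p under 0.05 was 2 with limma-trend and ranged from 0 to 1 when 1 tumor was left out. Leaving out each tumor in turn gave 8 (without NR tumor 6) to 12 lower genes. The median log2 fold change then ranged from -0.25 to -0.19 for fibrillar, from -0.45 to -0.29 for basement membrane and from -0.13 to -0.025 for other collagens, whose value was -0.071 without NR tumor 1, -0.040 without RS tumor 5, -0.025 without NR tumor 6 and -0.072 with limma-trend. The summed differences ranged from -902 to -580.0 CPM, from -327 to -206 CPM and from -148 to -97.5 CPM. As means of log2(CPM + 1) over the genes, a scale that shrinks differences of genes near or under 1 CPM, the differences were -0.21, -0.23 and -0.041. With 1 tumor left out, the exact p of the chain ratios ranged from 0.0873 to 0.952. No gene among the 15 named by the rule changed direction. The number of collagen genes with a log2 fold change below 0 was 21 to 24, so some of the 13 others did, and which ones was not followed. The cause of the shifts was not tested. With 5 tumors a group, differences of the size seen here did not pass adjustment, and genes under 1 CPM rest on few counts.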
